A study of Mus musculus with 9 samples.

Results

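RLTR44, RLTR45 and RLTR46 are names of mouse endogenous retroviruses of the ERVK group. Their RNA was followed here in wild-type (WT) mouse embryonic stem cells (ESCs) and in Terc-/- ESCs of an early (G1) and a late (G4) generation. The members were all rows of the table whose repeat name starts with one of these names, which gave 1055 of 623916 repeat copies and 12 of 1034 repeat names. RLTR45 held 817 of the copies, RLTR44 held 201 and RLTR46 held 37. These names were chosen from measured values of the G4 libraries, namely the level of RLTR45-int and of its copies on chromosome 4, so fold changes and edgeR calls of members in comparisons with G4 are given as a description, without p-values, and only G1 against WT is read as a test.

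The ESCs were all of the C57BL/6 strain. G4 Terc-/- ESCs came from blastocysts of third-generation knockout parents, G1 Terc-/- ESCs from heterozygous parents, and WT ESCs served as the control, with 3 libraries each. Terc is the RNA that telomerase copies to extend chromosome ends, and in mice lacking it these ends become shorter over the generations. The design asks whether repeat RNA differs between early-generation or late-generation Terc-/- cells and WT cells. Line and generation cannot be told apart in this design, and nothing in the labels says that the 3 libraries of a group were separate cultures, so a p-value covers only the variation among libraries, which may be technical. The deleted gene holds no repeat row, so the knockout was not checked here.

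An endogenous retrovirus is the remnant of a viral infection of the germ line. A complete copy, called a provirus, has an internal part with gag, pol and in some groups env genes, named with the ending int, between a pair of long terminal repeats (LTRs). The LTR carries the promoter of the virus and also the signal that ends its transcript. Recombination between the LTRs leaves a solo LTR behind, and such solo LTRs make up many of the copies in the genome. In ESCs most ERVK proviruses are kept silent by KRAB zinc finger proteins, which bind the viral DNA and recruit TRIM28 and the histone methyltransferase SETDB1, and by DNA methylation.

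The sequences that carry the results are shown first, in lower case except for the parts named. In WT 48.0% of the member counts fell on 165-base units annotated as RLTR45-int inside exons of 2 long noncoding RNAs, 2900097C17Rik on chromosome 2 (named Norad in RefSeq) and Gm7292 on chromosome 6. They were read 5′ to 3′ on the strand of each RNA from the GENCODE M21 transcripts (GRCm38). The first pair differed at 1 position, G74T, counted from 1 at the 5′ end with the base of 2900097C17Rik first, and that base is in capitals. The second pair was identical over all 165 bases, so that no read within it can be assigned to 1 of them.
2900097C17Rik, chr2:156392796-156392960, minus strand: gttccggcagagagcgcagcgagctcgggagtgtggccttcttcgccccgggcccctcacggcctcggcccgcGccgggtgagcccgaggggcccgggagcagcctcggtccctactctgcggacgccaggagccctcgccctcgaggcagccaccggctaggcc
Gm7292, chr6:117716343-117716507, plus strand: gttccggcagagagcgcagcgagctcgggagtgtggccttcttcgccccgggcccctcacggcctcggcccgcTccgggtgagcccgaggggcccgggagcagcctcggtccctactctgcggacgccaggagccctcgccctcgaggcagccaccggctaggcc
2900097C17Rik, chr2:156392453-156392617, minus strand, and Gm7292, chr6:117716686-117716850, plus strand: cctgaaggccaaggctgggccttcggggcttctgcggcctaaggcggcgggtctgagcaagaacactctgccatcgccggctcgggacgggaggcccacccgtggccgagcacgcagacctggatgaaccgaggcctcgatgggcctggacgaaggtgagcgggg

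The second kind is the internal part of a nearly complete provirus. The stretch below is the part of the RLTR45-int provirus on chromosome 4 that the second exon of the processed pseudogene Gm11800 covers, up to a length of 300 bases. Capitals mark the 297 bases that hold no stop codon when read in the third frame, whereas the first frame held 4 stop codons and the second frame 8. The GC content was 49.7% here, against 76.4% and 69.7% in the 2 units of 2900097C17Rik.
RLTR45-int in Gm11800, chr4:8119333-8119632, plus strand: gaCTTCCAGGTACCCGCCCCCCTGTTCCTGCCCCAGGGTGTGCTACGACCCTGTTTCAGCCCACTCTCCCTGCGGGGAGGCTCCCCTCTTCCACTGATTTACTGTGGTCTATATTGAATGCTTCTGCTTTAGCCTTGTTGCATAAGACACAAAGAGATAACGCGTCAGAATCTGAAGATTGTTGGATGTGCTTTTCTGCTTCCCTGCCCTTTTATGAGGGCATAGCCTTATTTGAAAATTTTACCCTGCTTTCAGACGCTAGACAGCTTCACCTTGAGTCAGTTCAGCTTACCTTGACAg

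The third kind is an LTR at the start of an annotated gene. Promoter windows of RefSeq, which run from 250 bases before to 50 bases after a gene's start (build GRCm38.p6), overlapped a member at 5 genes (Fbxw23, Gm33302, Gm46429, Gm5091 and Gm6329), and Gm33302 is shown because its RLTR44A copy belongs to a locus with values below. Its start, at position 97275739 of chromosome 9, lies inside an RLTR44A copy, and capitals mark the part annotated as RLTR44A. The letters CCAAT occurred once on each strand of the window, and 37.4% of all 32851 promoter windows held CCAAT on either strand. The letters TATAAA occurred on neither strand, and 13.6% of the windows held them.
Gm33302 promoter, chr9:97275489-97275788, plus strand: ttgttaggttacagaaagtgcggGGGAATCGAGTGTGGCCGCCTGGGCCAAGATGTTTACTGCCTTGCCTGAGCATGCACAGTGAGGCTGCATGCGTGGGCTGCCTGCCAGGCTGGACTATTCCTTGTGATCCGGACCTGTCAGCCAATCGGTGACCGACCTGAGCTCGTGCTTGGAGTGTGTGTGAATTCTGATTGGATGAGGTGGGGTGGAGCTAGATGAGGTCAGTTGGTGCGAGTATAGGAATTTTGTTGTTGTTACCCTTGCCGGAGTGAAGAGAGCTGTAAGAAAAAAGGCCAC

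The library totals ran between 918879 and 1137257 estimated counts, and members took 0.480% to 0.493% of them in G4, 0.201% to 0.216% in G1 and 0.184% to 0.198% in WT. Most member copies were thinly covered, with 726 copies (68.8%) under 5 counts over all 9 libraries. Reads shared by several copies had been divided before deposition, and copies without any divided count held 17.3% of the member counts, against 63.4% of the counts of all repeats. A single copy's value is therefore less certain than a sum, and most counts below are given for repeat names or for loci. Loci join the rows of 1 family on 1 strand that lie within 2 kb of each other (554 loci). Values of single rows, where given, carry this uncertainty. CPM is the count relative to the TMM-scaled library size, and fold changes and standard errors (SE) are on the log2 scale from edgeR's quasi-likelihood fit, with a call at a Benjamini-Hochberg adjusted p under 0.05. Markers of other cell states moved with the groups. By repeats in gene exons, 6 of 14 pluripotency markers had counts and their sum was 22653 to 26535 CPM in G4, 11315 to 11993 CPM in G1 and 7268 to 7715 CPM in WT, while 7 of 15 primitive endoderm markers summed to 140 to 174 CPM in G4, 2018 to 2141 CPM in G1 and 4542 to 4588 CPM in WT. Tdgf1 made up most of the pluripotency sum (16543 CPM in G4, 6676 in G1 and 4328 in WT). Over all 4730 genes measured this way, 24.4% were called higher and 24.0% lower in G4 than in WT. Of the 5 pluripotency markers tested, 4 were called higher in G4 than in WT, and Lin28a was not called (447 CPM in G4, 457 in G1 and 504 in WT). Of the 5 primitive endoderm markers tested, 4 were called lower in G4 than in WT, and Col4a2 made up most of the sum (86.1 CPM in G4, 1589 in G1 and 3495 in WT), while Sparc was called higher (43.9 CPM in G4, 15.2 in G1 and 10.9 in WT). Feeder fibroblast markers (5 of 12 with counts) summed to 122 to 128 CPM in G4, 88.0 to 120 CPM in G1 and 44.8 to 74.8 CPM in WT. The 2-cell-like markers, of which 3 of 13 had counts, summed to 16.5 to 29.9 CPM in G4, were at 0 in every G1 library and reached at most 2.08 CPM in WT. The part of these differences in the results below was not tested, and fewer cells of a type and less RNA per cell cannot be told apart in bulk RNA.

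Among the repeat names, RLTR45-int was by far the most abundant. Its 533 copies summed to 3373, 3463 and 3537 CPM in G4, to 1458, 1600 and 1509 CPM in G1 and to 1415, 1287 and 1292 CPM in WT. The G4 libraries lay far above the other 6, and the G1 libraries lay just above the WT libraries without overlap. The fold changes on the log2 scale were 1.38 for G4 over WT (SE 0.05) and 1.18 for G4 over G1 (SE 0.05).
The RLTR45 LTR, with 284 copies, stood at 396, 469 and 406 CPM in G4, at 207, 227 and 199 CPM in G1 and at 189, 218 and 202.2 CPM in WT. Here G4 was separate from both other groups while G1 and WT overlapped, with a log2 fold change of 1.06 for G4 over WT (SE 0.09).
RLTR44-int, the internal part of the RLTR44 elements, averaged 356 ± 32.3 CPM in G4, 197 ± 19.1 CPM in G1 and 215 ± 13.9 CPM in WT (SD, n = 3 each). RLTR44C, its most abundant LTR, averaged 178 ± 10.1 CPM in G4, 98.2 ± 10.9 CPM in G1 and 99.4 ± 13.4 CPM in WT. The log2 fold changes of G4 over WT were 0.72 (SE 0.10) and 0.84 (SE 0.12).
Of the 9 names that passed the count filter, these 4 and RLTR44B (log2 fold change 0.94, SE 0.38) were called higher in G4 than in WT and none was lower, while 23.1% of all 853 names tested were called higher and 23.4% lower. RLTR44B and RLTR44D passed the filter only with the G4 libraries included. RLTR44B rested on 56 counts in G4, 23 in G1 and 26 in WT, and it was not called in 7 of the 9 fits that left out a library, where its log2 fold change lay between 0.68 and 1.13. In G4 against G1, 6 names were called higher and none lower, beside 19.5% and 23.0% of all names.

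**Figure D1:**
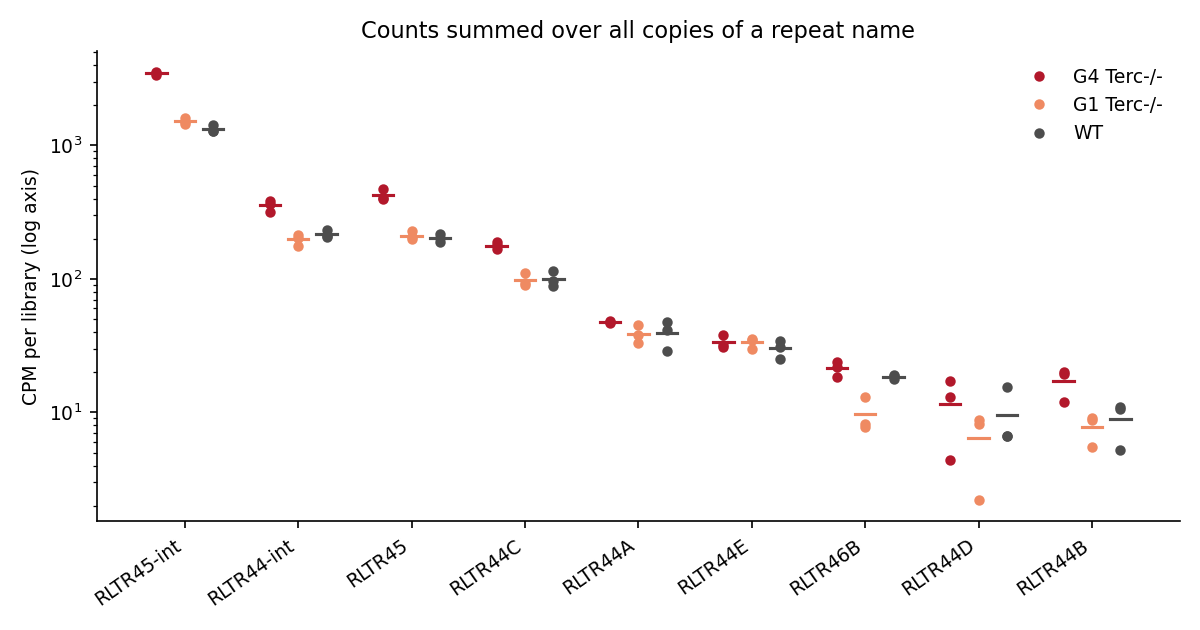
CPM (log axis) of the 9 repeat names that passed the count filter, in G4 (left), G1 (middle) and WT (right), with 1 point per library and a line at the mean. RLTR45-int stands at 3373 to 3537 CPM in G4 and at 1287 to 1600 CPM in the other 6 libraries, while RLTR44A and RLTR44E overlap between G4 and WT.

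The sum over RLTR45-int joined copies that differed in opposite ways. The long noncoding RNA units accounted for 15.3% of all member counts in G4, 41.7% in G1 and 48.0% in WT. Without these 4 copies RLTR45-int stood at 2759 ± 87.2 CPM in G4, 631 ± 56.0 CPM in G1 and 388 ± 18.7 CPM in WT (SD, n = 3 each). Long RLTR45-int loci, defined here as loci with at least 4 kb of internal sequence, numbered 75 and held 59.3% of the member counts in G4, 26.1% in G1 and 15.5% in WT. Their counts per library were 2603, 3030 and 3145 in G4, 470, 679 and 482 in G1 and 310, 257 and 322 in WT. The counts were concentrated on few of them, since the 10 long loci with the most counts held 7698 of the 8777 counts of all 75 in G4, and 33 had 10 counts or fewer over the 9 libraries.

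The provirus on chromosome 4 whose copies drew attention to these names had the largest fold change of G4 over WT among the long loci tested. Its internal part spans chr4:8117549-8123961 on the plus strand in 6 rows, and the processed pseudogene Gm11800, whose exons cover a small part of it, is the only annotated gene there. It stood at 518, 445 and 461 CPM in G4, at 11.5, 7.98 and 14.3 CPM in G1 and at 1.04, 5.22 and 1.92 CPM in WT. These CPM values rest on 1470 counts in G4, 33 in G1 and 8 in WT, and the 3 groups did not overlap. The log2 fold change of G4 over WT was 7.39 (SE 0.24).
The table lists an LTR on each side of it, but of another name, ERVB4_2-LTR_MM, at chr4:8117035-8117548 and chr4:8123962-8124476. Both LTR rows were at 0 counts in all 3 WT libraries and together had 154 counts in G4 and 2 in G1. In G4 the level per kb was 22.7 CPM at the 5′ LTR and 73.0 CPM at the 3′ LTR, and the 6 internal rows ranged between 64.6 and 127 CPM per kb. Of the internal rows, those at 8118186, 8118620 and 8118739 had no count in WT, so their levels in G4 were at least 36.1-fold, 17.4-fold and 33.2-fold higher, taking 3 counts over the 3 WT libraries as the floor. The row at 8121774 had 548 counts in G4 and 2 in WT, a ratio of 260 with an exact 95% interval of 71.7 to 2154. Such intervals and floors cover counting error only, and they treat rounded estimated counts as counts. All 6 internal rows and both LTR rows held divided reads, so these values also depend on how shared reads were divided. Other repeats within 10 kb of the provirus had 8 counts in G4, 2 in G1 and 0 in WT.

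**Figure D2:**
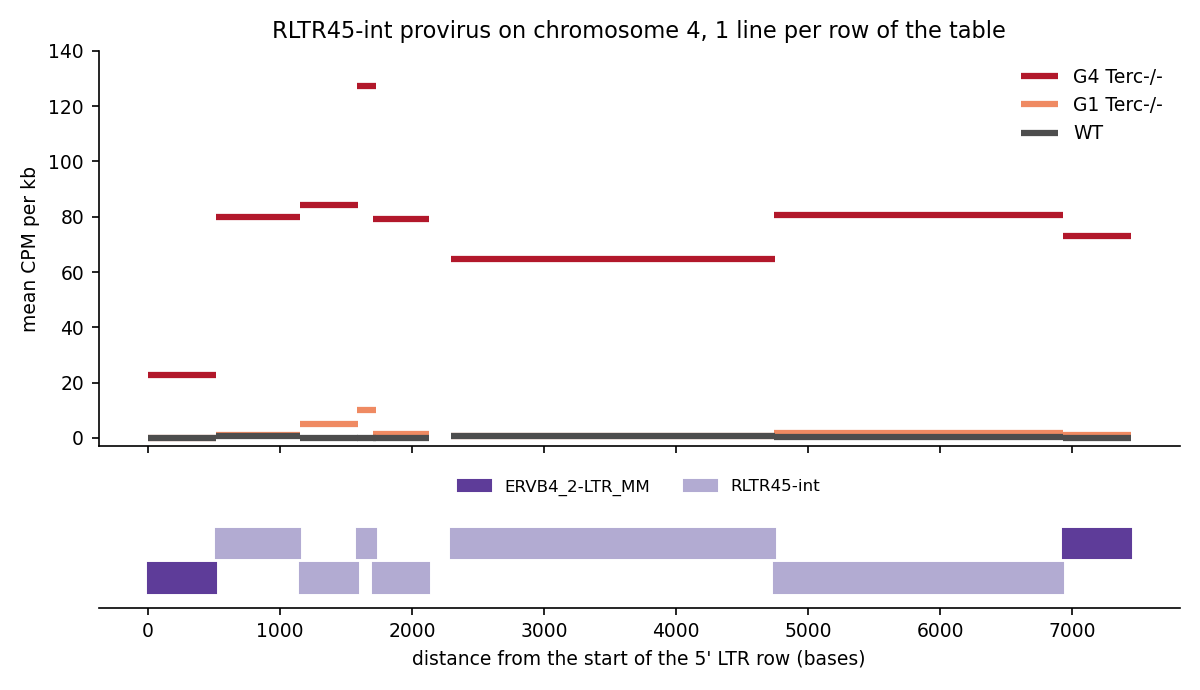
Mean CPM per kb of each row of the table along the provirus on chromosome 4 against the distance from the start of its 5′ LTR, with the rows drawn below to scale. In G4 the internal rows lie between 64.6 and 127 CPM per kb and the 5′ LTR at 22.7, while the rows of WT stay below 1 CPM per kb.

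Other long loci had the same order of groups at other levels. A pair of loci lies on chromosome 12, chr12:23698220-23704691 and chr12:23866896-23873365, both on the plus strand and both outside annotated genes. The long loci named from here on were chosen after their values were seen, except where they hold a copy named by rule. The first stood at 664, 622 and 619 CPM in G4, at 140, 165 and 156 CPM in G1 and at 59.3, 60.5 and 72.9 CPM in WT. The second stood at 366, 394 and 408 CPM in G4, at 38.6, 99.4 and 57.2 CPM in G1 and at 36.4, 21.9 and 20.2 CPM in WT. Every count of both loci sits on rows with divided reads, so how the counts split between them depends on how shared reads were divided.
A locus at chr15:9219041-9226527, with an RLTR45 LTR in it, had 182, 211 and 222 CPM in G4, 6.26, 11.5 and 12.1 CPM in G1 and 2.08, 2.09 and 2.88 CPM in WT. Its internal row at 9222375 had 202 counts in G4, 9 in G1 and 0 in WT, which makes it at least 63.9-fold higher in G4 than in WT. This row also held divided reads.
On chromosome 3, chr3:93712557-93719018 had 197, 170.0 and 173 CPM in G4, 9.38, 11.5 and 11 CPM in G1 and 6.25, 1.04 and 0.96 CPM in WT. A second locus on chromosome 4, chr4:55309219-55315661, had 180.2, 191 and 235 CPM in G4, 7.30, 2.66 and 4.40 CPM in G1 and 2.08, 1.04 and 0.96 CPM in WT. These loci had at most 8 counts in WT, whereas the chromosome 12 pair had 191 and 77 counts there.
Of all 75 long loci, 53 had more counts in G4 than in WT, and 30 had every G4 library above every WT library. A few of the long loci that passed the count filter did not differ by more than their spread. The locus on chromosome Y at positions 43924923 to 43931400 had 6.59, 11 and 3.60 CPM in G4, 8.34, 3.55 and 8.80 CPM in G1 and 13.5, 6.26 and 10.6 CPM in WT, and chr12:23906501-23912897 had 25.3, 20.1 and 12.6 CPM in G4, 18.8, 15.1 and 4.40 CPM in G1 and 20.8, 7.31 and 17.3 CPM in WT. Their groups overlapped, and both have ERVB4_2-LTR_MM rows beside them like the locus on chromosome 4.

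Of the 75 long loci, 19 passed the count filter, and 16 of these were called higher in G4 than in WT. Only 8.01% of the RLTR45-int counts lay on copies without divided reads, so calls at long loci may not be separate results. Over loci of every length, 21 of 33 that passed were called higher and 2 lower in G4 than in WT, where 21.1% and 21.3% of all 13243 features tested were, and nothing is read from that count because the G4 values drew attention to these loci. Of the 33, 16 passed the filter only with the G4 libraries included. Of the 554 loci in all, most had too few counts to be tested. Counted as single rows, 68 of 1055 copies passed, of which 51 were called higher and 2 lower in G4 than in WT, against 21.3% in each direction over all copies, and 38 of the 68 passed only with G4.

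The LTRs listed beside the long loci differed. Rows of ERVB4_2-LTR_MM lay within 300 bases of 13 long loci that held no RLTR45 LTR row, and 11 long loci had such a row on both sides. The RLTR45 LTR was part of 49 long loci, 1 locus (on chromosome 15) had both, and 12 had neither listed. The 13 loci beside ERVB4_2-LTR_MM held 6594 counts in G4, 996 in G1 and 468 in WT, and the 49 loci with RLTR45 held 1900 counts in G4, 586 in G1 and 399 in WT. The median level per kb was 3.09 CPM in G4, 1.23 in G1 and 0.45 in WT at the loci beside ERVB4_2-LTR_MM, and 0.30 CPM in G4, 0.064 in G1 and 0.056 in WT at the loci with RLTR45. Among those that passed the filter, the median log2 fold change of G4 over WT was 3.36 for 10 loci beside ERVB4_2-LTR_MM and 3.94 for 8 loci with RLTR45. Of the 33 loci of every length that passed, 16 did so only with the G4 libraries. The filter thus favours loci high in G4, and these medians do not describe the loci that failed it. Whether the kinds of flank differ was not tested. The table lists only copies with a count, so a missing LTR row does not show that the LTR is missing from the genome.
Of the ERVB4_2-LTR_MM copies themselves, the 28 of 63 beside RLTR45-int had 711 counts in G4, 76 in G1 and 37 in WT, and the other 35 copies had 66 counts in G4, 11 in G1 and 11 in WT.
Most of these loci lie away from annotated genes. For the 12 long loci that passed the filter and overlap no gene, the loci themselves had 5889 counts in G4, 1067 in G1 and 512 in WT, and the 96 other repeats within 10 kb of them had 209 counts in G4, 112 in G1 and 103 in WT. The neighbours thus had few counts in every group.

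**Figure D3:**
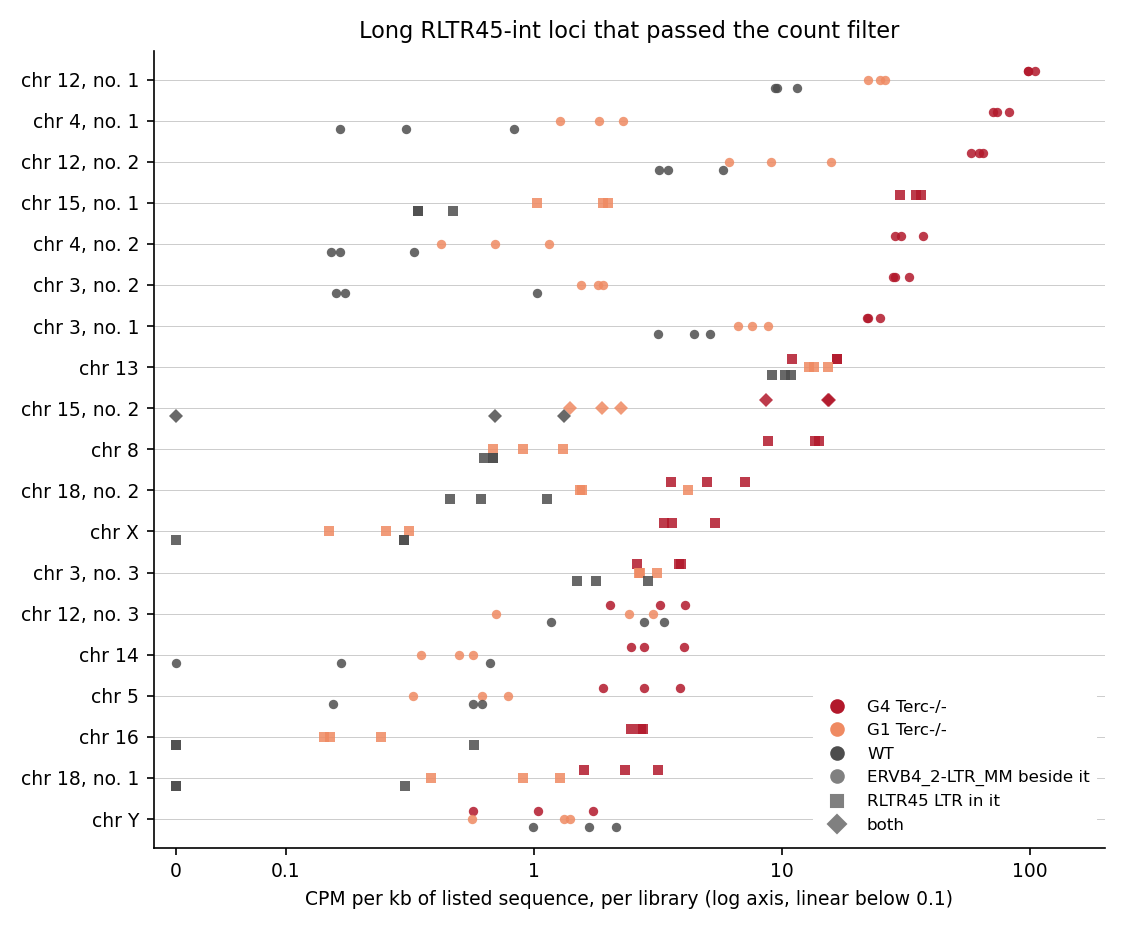
CPM per kb of listed sequence in each library (log axis, linear below 0.1) for the 19 long RLTR45-int loci that passed the count filter, ordered by their level in G4 and numbered along each chromosome. Circles have an ERVB4_2-LTR_MM row beside them, squares hold an RLTR45 LTR and the diamond has both. G4 points lie to the right of WT points except at chr Y, chr 12 no. 3 and chr 3 no. 3, where the groups overlap.

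The comparison of G1 with WT tested whether the same elements differ in first-generation Terc-/- cells. RLTR45-int was 0.19 higher on the log2 scale (SE 0.05, edgeR adjusted p = 0.0193), and it was the only member name called, beside 5.51% of all names called higher and 6.33% lower. All 3 G1 libraries lay above all 3 WT libraries. The call was lost without G1 2 (0.15, adjusted p = 0.136), WT 2 (0.17, adjusted p = 0.0883) or WT 3 (0.16, adjusted p = 0.0987), and with only the copies that hold whole values (0.18, adjusted p = 0.522). Over copies more than 5 kb from any gene, which leave out the units in long noncoding RNAs, the fold change was 0.81 on the log2 scale (edgeR adjusted p = 7.12e-08).
At the level of loci, 7 of 33 were called higher in G1 than in WT and none lower, beside 2.45% and 4.38% of all features. All 7 were long loci. Only 4 of them also passed the filter without the G4 libraries. In a fit of G1 and WT alone 17 loci passed and 3 were called, all of them higher in G1. The share of all features called in that fit is not given here, so nothing is read from its count.
These 3 were the chromosome 12 pair and chr3:93694861-93701242. The locus chr12:23698220-23704691 had a log2 fold change of 1.25 (SE 0.13, edgeR adjusted p = 2.99e-07, and 9.22e-06 in the fit of G1 and WT alone). Its partner at chr12:23866896-23873365 had one of 1.34 (SE 0.27, edgeR adjusted p = 0.00189, and 0.00872 in the fit of G1 and WT alone). Both were called in each of the 9 fits that left out a library. Since all counts of this pair sit on rows with divided reads, the calls at its loci may not be separate results. The locus chr3:93694861-93701242 had 41.7, 55.0 and 47.3 CPM in G1 and 32.3, 19.8 and 27.8 CPM in WT (0.85, SE 0.21, edgeR adjusted p = 0.0119, and 0.0266 in the fit of G1 and WT alone), and it was not called without G1 2 (adjusted p = 0.0909), without WT 2 (adjusted p = 0.106) or with a looser filter (adjusted p = 0.0959).
The fourth, on chromosome 18 (8140466 to 8147394), had 10.4, 10.6 and 28.6 CPM in G1 and 3.12, 4.17 and 7.67 CPM in WT (1.66, SE 0.50, edgeR adjusted p = 0.0449). It was not called in the fit of G1 and WT alone (adjusted p = 0.0562), by the DESeq2 Wald test (adjusted p = 0.0587) or with a looser filter (adjusted p = 0.0644), and it was called in 4 of the 9 fits that left out a library, with an adjusted p of 0.337 without G1 3.
The other 3, chr4:8117549-8123961, chr15:9219041-9226527 and chr3:93712557-93719018, entered the test only through the G4 libraries, and the first is the locus that drew attention to these names. Their log2 fold changes of G1 over WT were 1.98 (SE 0.45), 2.03 (SE 0.47) and 1.93 (SE 0.49), given as values only.
The WT libraries are shared with the comparison of G4 and WT, so the differences of G1 and of G4 from WT are not independent. In counts, the 75 long loci had 1631 in G1 and 889 in WT, beside 8777 in G4.
Counted as single rows, 5 of 68 copies were higher in G1 than in WT and none lower, against 2.41% and 4.36% of all copies tested. Of the 68 copies, 38 passed the filter only with the G4 libraries. In a fit of G1 and WT alone 30 copies passed and 3 were called, all of them higher in G1, again without a share over all copies of that fit. Between the Terc-/- lines, 21 of 33 loci and 52 of 68 copies were called higher in G4 than in G1 and none lower, while 18.8% and 19.0% of all features of each kind were called higher and 19.2% lower in each.

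RLTR44 elements were dominated by 1 insertion inside a gene. A complete RLTR44C, RLTR44-int, RLTR44C insertion at chr10:60712367-60715000 on the plus strand lies in the 3′ UTR of Slc29a3, which encodes a nucleoside transporter of lysosomes and mitochondria and is read from the minus strand. It stood at 438, 462 and 461 CPM in G4, at 226, 232 and 205 CPM in G1 and at 248, 207 and 225 CPM in WT. G4 was separate from both other groups, with a log2 fold change of 1.00 over WT (SE 0.10), while G1 differed from WT by -0.04 (SE 0.11, edgeR adjusted p = 0.904). Its 7 rows had log2 fold changes of G4 over WT between 0.61 and 1.27. The 18 other repeats within 10 kb had 342 counts in G4, 160 in G1 and 172 in WT. The library kit did not mark strand, so RNA of the gene and RNA of the repeat cannot be told apart here.
Outside this insertion RLTR44-int stood at 76.0 ± 13.8 CPM in G4, 57.9 ± 5.47 CPM in G1 and 74.9 ± 13.5 CPM in WT, and RLTR44C at 21.3 ± 3.08 CPM in G4, 10.8 ± 2.53 CPM in G1 and 9.71 ± 2.61 CPM in WT (SD, n = 3 each). Without Slc29a3, the mean level of RLTR44-int in G4 was within 1 SD of that in WT.
The RLTR44A copy at the start of Gm33302 belongs to a locus, chr9:97275512-97278822, that had 36.3, 23.8 and 25.2 CPM in G4, 3.13, 3.55 and 0 CPM in G1 and 6.25, 9.39 and 5.76 CPM in WT. G4 was highest and G1 lowest, with log2 fold changes of 1.97 for G4 over WT (SE 0.41) and -1.56 for G1 over WT (SE 0.63). At these G1 and WT levels the locus passed the count filter only through the G4 libraries. Its fold change of G1 over WT is therefore given as a value only. The 10 other repeats within 10 kb had 76 counts in G4, 13 in G1 and 19 in WT. The locus was chosen after its values were seen.
An insertion of RLTR44A and RLTR44-int in the 3′ UTR of Cep162, a gene for a centriole protein, at chr9:87190383-87192326, had 40.7, 48.4 and 57.6 CPM in G4, 61.5, 39.9 and 40.7 CPM in G1 and 46.9, 47.0 and 77.7 CPM in WT. These groups overlapped, and G1 differed from WT by -0.28 on the log2 scale (SE 0.23, edgeR adjusted p = 0.553). RLTR44A, RLTR44D and RLTR44E as names also overlapped between G4 and WT, with log2 fold changes of 0.26 (SE 0.20), 0.25 (SE 0.51) and 0.14 (SE 0.22).

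Copies of the RLTR45 LTR without internal sequence made up 200 loci, and 1 of them held most of the counts. This copy, at chr7:75774539-75774994 on the plus strand, lies in an intron of the long noncoding RNA AU020206, which is read from the minus strand. It stood at 227, 250.4 and 202.4 CPM in G4, at 97.0, 121 and 97.9 CPM in G1 and at 123, 117 and 80.6 CPM in WT. The log2 fold change of G4 over WT was 1.09 (SE 0.15), and that of G1 over WT was -0.01 (SE 0.16, edgeR adjusted p = 0.986). The 20 other repeats within 10 kb had 9120 counts in G4, 3860 in G1 and 3971 in WT. Without this copy the RLTR45 LTR stood at 206 ± 15.6 CPM in G4, 103 ± 2.97 CPM in G1 and 94.3 ± 27.5 CPM in WT (SD, n = 3 each).
A second solo LTR, at chr4:147579271-147579750 in an intron of the zinc finger gene Zfp985, had 58 counts in G4, 9 in G1 and 6 in WT, and the other repeats within 10 kb of it had 523 counts in G4, 124 in G1 and 136 in WT. It was chosen after its values were seen.

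2900097C17Rik (Norad) is an abundant cytoplasmic RNA with many binding sites for PUMILIO proteins, and the units lie near its 5′ end, at bases 20 to 184 and 363 to 527 of its 4915 bases. Gm7292 on chromosome 6 holds a copy of the same region at bases 2 to 166 and 345 to 509 of its 2527 bases. The 4 units together stood at 789, 658 and 744 CPM in G4, at 839, 886 and 878 CPM in G1 and at 1016, 873 and 899 CPM in WT. G4 lay below both other groups in every library, and G1 and WT overlapped. The chromosome 2 units alone differed by -0.36 on the log2 scale in G4 over WT (SE 0.11), with a value of -0.19 in G1 over WT (SE 0.11, edgeR adjusted p = 0.349). Their sum includes a unit of the identical pair, so it also depends on how shared reads were divided. The unit at 156392796, which differs by G74T, had -0.38 in G4 over WT (SE 0.10). In G1 over WT it had -0.15 (SE 0.10, edgeR adjusted p = 0.454). For the sum of the chromosome 2 units, the difference between G4 and WT was not called without G4 2 (-0.29), without G4 3 (-0.33) or with a looser filter (-0.35). Without G1 2 the one between G1 and WT was called (-0.37, edgeR adjusted p = 0.0400). The 15 other repeats within 10 kb had 1566 counts in G4, 2107 in G1 and 2029 in WT.
In G1 and WT the 2 identical units varied more between libraries than their sum did, while in G4 they did not. Their sum was 293, 299 and 336 counts in G4, 367, 392.5 and 329 counts in G1 and 386, 335 and 380 counts in WT. The part given to chromosome 6 was 86.3, 75.2 and 114 counts in G4, 159, 11.9 and 241 counts in G1 and 264, 26.8 and 11.9 counts in WT. In the pair that differs by G74T, the chromosome 2 unit had 425, 421 and 487 counts in G4, 436, 606 and 468 in G1 and 590, 500 and 557 in WT, while the chromosome 6 unit had at most 4.16 counts in any library. Nearly all counts of the Gm7292 locus sit on its identical unit, so its fold change depends on how shared reads were divided. It moved with 1 library. Its log2 value of G4 over WT was -0.21 (SE 0.67) with all libraries and 2.13 without WT 1, and in G1 over WT it was 0.47 (SE 0.64, edgeR adjusted p = 0.757) with all libraries and 2.83 (adjusted p = 0.00795) without WT 1.

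**Figure D4:**
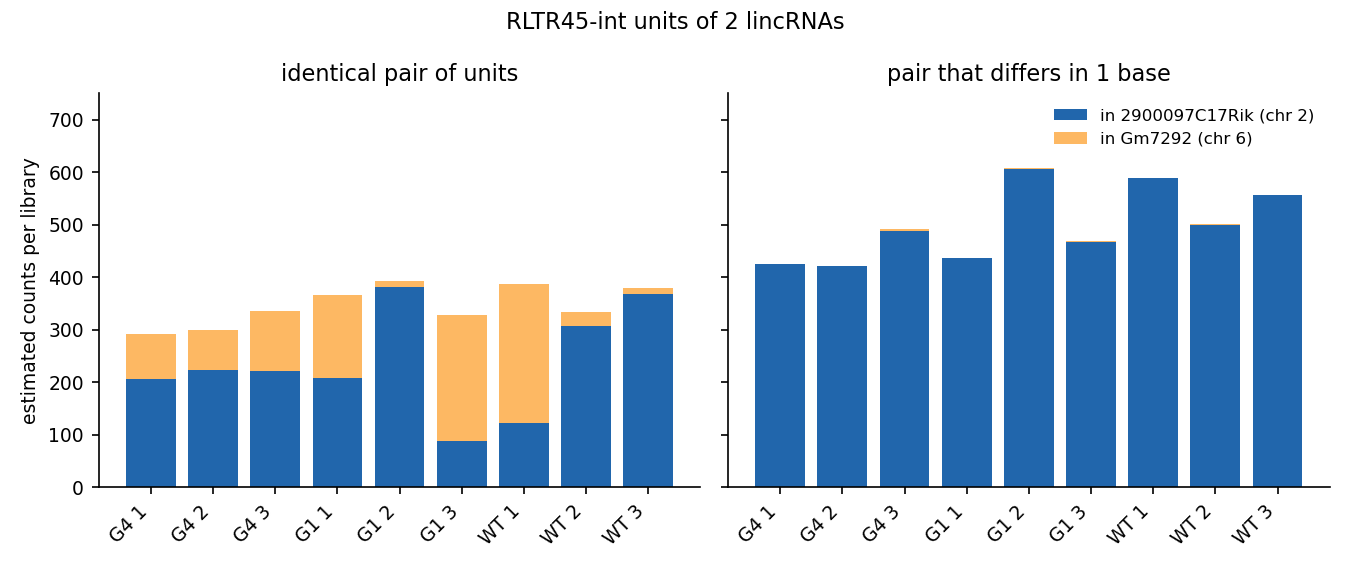
Estimated counts per library of the RLTR45-int units in 2900097C17Rik and Gm7292, stacked, for the identical pair (left panel) and the pair that differs in 1 base (right panel), with G4, G1 and WT libraries in this order. The height of the identical pair lies between 293 and 392.5 counts while the part drawn for chromosome 6 lies between 11.9 and 264 counts.

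Among the smaller remnants of RLTR45-int, a 167-base copy on a scaffold assigned to chromosome 4 but not placed on it had 17.6, 17.4 and 12.6 CPM in G4, 29.2, 24.0 and 23.1 CPM in G1 and 26.0, 31.3 and 31.7 CPM in WT, with a log2 fold change of -0.91 for G4 over WT (SE 0.28) that was not called without G4 3 (-0.73), by the DESeq2 Wald test (-0.90) or with a looser filter (-0.89). A copy in an exon of Tma16, a gene linked to translation, at chr8:66483526-66483867, had 11, 7.31 and 9.0 CPM in G4, 11.5, 12.4 and 7.70 CPM in G1 and 12.5, 12.5 and 11.5 CPM in WT.

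RLTR46 elements had the fewest counts, with 101 in G4, 50 in G1 and 75 in WT over 37 copies. RLTR46, RLTR46A and RLTR46A2 had at most 20 counts in any group and did not pass the filter, so differences between groups were not tested for them. RLTR46B stood at 21.9, 23.6 and 18.4 CPM in G4, at 13.1, 8.20 and 7.73 CPM in G1 and at 17.6, 18.7 and 19.2 CPM in WT. All 3 G1 libraries lay below all others, and the log2 fold change of G1 over WT was -0.94 (SE 0.33), which missed the threshold (edgeR adjusted p = 0.0762). Most of its counts came from a copy in the 3′ UTR of the zinc finger gene Zfp619, chr7:39538417-39538797, with 9.89, 13.7 and 13.5 CPM in G4, 7.30, 6.21 and 3.30 CPM in G1 and 12.5, 13.6 and 14.4 CPM in WT (G1 over WT -1.24, SE 0.44, edgeR adjusted p = 0.0955).

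A list of genes linked to the silencing of such retroviruses, which also holds the DNA demethylases Tet1 and Tet2, was read through repeats in gene exons, which gives only a part of each gene's RNA. Of 28 genes on this list, 16 passed the filter, and 5 were called higher and 3 lower in G4 than in WT by edgeR, beside 24.4% and 24.0% of all 4730 genes so measured. Suv39h1, a histone H3K9 methyltransferase, stood at 82.9 ± 6.40 CPM in G4, 274 ± 5.29 CPM in G1 and 384 ± 53.8 CPM in WT (SD, n = 3 each), with log2 fold changes of -2.21 for G4 over WT (SE 0.12) and -0.49 for G1 over WT (SE 0.11, edgeR adjusted p = 0.000747). Cbx3, a protein that reads H3K9 methylation, was lower in G4 than in WT (-2.16, SE 0.58), at low levels of 2.77 CPM in G4 and 12.9 CPM in WT. The zinc finger gene Zfp809 was also lower in G4 than in WT (-0.48, SE 0.10). Trim28 was higher (0.94, SE 0.30), as were Resf1, Tet1, Tet2 and the zinc finger gene Zfp932, with log2 fold changes between 0.44 and 0.98. Setdb1 stood at 155 CPM in G4, 122 CPM in G1 and 130.0 CPM in WT on average, and it was not called in G4 against WT (0.25, SE 0.14). In G1 against WT 2 genes of the list were higher, Resf1 and Tet1, and 2 were lower, Suv39h1 and Zfp809, beside 4.59% and 6.51% of all genes. How these genes bear on the retroviruses was not tested.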

How the data were processed

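Counts of repeat copies in 9 ESC libraries were analysed. The estimated count values were deposited by the authors per repeat copy and hold decimals where reads were shared between copies. How these were divided is not given in the sources used here. The submitters' processing notes name FastQC 0.11.9, STAR 2.5.3a, featureCounts and mm10 without their roles. A second deposited table holds a signal, in which the authors had scaled each library's rounded counts by its own size factor. It served only to check this relation. Columns named Control were taken as WT.

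The members and all lists were chosen with earlier results of these data known. Named were every member name, the 12 copies with the highest mean CPM, the tested copies with the 4 largest and 4 smallest fold changes of G4 over WT and the 2 largest and 2 smallest of G1 over WT, the copies adjoining these, and the 2 RLTR45-int copies near the start of chromosome 4. Loci were added after the data were seen.

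After rounding, features passing filterByExpr were fitted over all 9 libraries with TMM scaling in edgeR 4.0.16 (R 4.3.3, glmQLFit and glmQLFTest, two-sided, no replicate block), and p-values were adjusted over all features of a level. The SE was taken as the fold change on the log2 scale divided by the square root of F. Copies were placed with GENCODE M21 gene models (GRCm38), and a copy with at least 0.5 of its length in exons counted for that gene. The pipeline was tested on simulated data. Alternatives were DESeq2 1.42.0, other scalings and filters, a replicate block, fits of 2 groups, a fold rule, subsets of copies and leaving out each library.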

Additional observations from a re-analysis of the deposited data

How the results depend on the processing

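No value that was called changed sign under an alternative, but the Gm7292 locus, not called in G4 against WT (-0.21 on the log2 scale), was called in the other direction without WT replicate 1 (2.13). The values of that locus depend on how the reads of the identical units were divided. Repeat names called in G4 against WT numbered 5, 3 with only copies over 5 kb from genes and 2 with a rule of a fold over 2 and an unadjusted p. In G1 against WT 1 name was called, 0 with only copies of whole values, 0 with the fold rule and 0 to 1 when each library was left out. Of single copies, 53 were called in G4 against WT, 27 as insertions (rows within 100 bases joined, so fewer features) and 81 with a looser filter, which tested 328 member copies. In G4 against G1 52 copies were called, and 25 as insertions. In G1 against WT 5 copies were called, 3 in a fit of these 2 groups only, 19 with the fold rule and 3 to 6 when each library was left out. Of loci in G1 against WT 7 were called, 3 in a fit of the 2 groups and 11 with the fold rule. The cause of these shifts was not tested where it is not given. The share of all features called under each alternative is not given here, so these counts show only how the member calls moved. With the replicate number as a block, the comparison of G4 with WT called 5 names, 53 copies and 23 loci, that of G1 with WT called 1 name, 5 copies and 6 loci (the chromosome 18 locus had an edgeR adjusted p of 0.0564), and that of the Terc-/- lines called 6 names, 50 copies and 19 loci. Samples with the same number did not deviate together over the copies tested (r between -0.0153 and 0.0208). Whether they share a batch cannot be told from this, since most copies have few counts. Depth limits most copies, since 68.8% had under 5 counts.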
